A study of Mus musculus with 2 samples.

Results

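The genes described here are 6 members of the CCR4 and CCR8 chemokine axis, the ligands Ccl17, Ccl22, Ccl1 and Ccl8 and the receptors Ccr4 and Ccr8. They were selected by symbol and make up 6 of the 31253 genes in the deposited tables, of which 21183 had a count. The data are single-cell RNA-seq of sorted CD45+ cells from the brains of C57BL/6 mice that carried intracranial tumours of GL261, a mouse glioma cell line. Each group is 1 library: 1 from mice given PBS by gavage, which the sample label calls untreated, and 1 from mice given ibudilast, an inhibitor of cyclic nucleotide phosphodiesterases and of MIF, by the same route at 20 mg/kg, 5 times a week for 2 weeks. The labels do not say how many mice entered a library. With 1 library per group no difference was tested: the intervals below hold the error of counting UMIs and nothing of the variation among cells or animals, and every difference is one between these libraries. The members were chosen with results of these data in view, among them a lower Ccl1 level in T cells of the ibudilast library, so their levels are a description.

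CCL17 and CCL22 bind CCR4, a receptor of regulatory and type 2 helper T cells, and both are known as products of dendritic cells. CCL1 binds CCR8, and mouse CCL8 is a further CCR8 agonist. CCR8 is known from regulatory T cells in tumours and from skin-homing and type 2 helper T cells, and its ligand CCL1 is made by activated T cells as well as by myeloid cells. Both receptors signal through inhibitory G proteins, and both are being studied as targets for removing regulatory T cells from tumours.

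In the GENCODE M21 annotation of mm10, Ccl22 (ENSMUSG00000031779) lies at chr8:94745590-94751699 and Ccl17 (ENSMUSG00000031780) at chr8:94810453-94812036. Both are on the plus strand, 58753 bases apart. Ccl8 (ENSMUSG00000009185, chr11:82115185-82116799, plus strand) and Ccl1 (ENSMUSG00000020702, chr11:82176657-82305690, minus strand) lie near each other in the CC chemokine cluster of chromosome 11. Ccr4 (ENSMUSG00000047898, chr9:114490316-114504916, minus strand) and Ccr8 (ENSMUSG00000042262, chr9:120092114-120094906, plus strand) are both on chromosome 9. None of the 6 overlapped another annotated gene.

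The promoters of Ccl22 and Ccl17 are shown because these neighbouring genes were read in the same migratory dendritic cells. The bases come from RefSeq (GRCm38.p6, plus strand, 5′ to 3′) and end before the start of the gene. Ccl22 is shown at chr8:94745434-94745589, up to the start of its GENCODE model, and Ccl17 at chr8:94810203-94810452. Capitals mark matches of the STAT6 motif TTCNNNNGAA and of the related STAT motif TTCNNNGAA.
Ccl22: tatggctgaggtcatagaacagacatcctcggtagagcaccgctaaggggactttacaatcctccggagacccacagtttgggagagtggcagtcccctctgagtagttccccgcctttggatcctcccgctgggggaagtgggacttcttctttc
Ccl17: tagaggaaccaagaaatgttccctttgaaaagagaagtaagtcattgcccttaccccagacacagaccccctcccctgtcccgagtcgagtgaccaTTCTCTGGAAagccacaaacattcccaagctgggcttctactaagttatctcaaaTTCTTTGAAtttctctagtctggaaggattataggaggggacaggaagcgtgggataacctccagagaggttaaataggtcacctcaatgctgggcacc

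Over the 250 bases before each RefSeq start, on both strands, the Ccl17 promoter held 1 match of the STAT6 motif, TTCTCTGGAA at chr8:94810299-94810308, which begins 154 bases before the start. It held 1 match of the shorter-spaced motif, TTCTTTGAA at chr8:94810354-94810362, 99 bases before the start. Of 32851 mouse promoters of this length, 5.85% held TTCNNNNGAA and 7.02% held TTCNNNGAA. Also searched were the cAMP response core TGACG, present in 17.8% of promoters, and the NF-kB motif, present in 1281 of them. The Ccl22 window and those of the other 4 members held no match of the 4 motifs, which says only that these letters are not in those windows.

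After filtering, 7666 PBS and 6654 ibudilast cells were kept, with a median of 11660 and 7857 UMIs (unique molecular identifiers, each counting 1 captured RNA molecule). The libraries shared 19 barcodes. Cells were placed in gates, sets defined by UMIs of marker genes that include none of the 6 members. One gate, of cells with Itgax and little C1q RNA, was added after the members' UMIs had been seen. Its leading genes were Plet1, Epcam, Ccl17, Cdh1 and Ffar2, and it is called by its rule, Itgax+ C1q-low. Macrophage markers summed to 5692 and 6636 CPM (counts per 1000000 UMIs of the gate) in it. They summed to 1924 and 1380 CPM in cDC2 and 40072 and 40222 CPM in macrophages. It is counted below with the dendritic gates, but its cell type was not settled. The label speaks of lymphocytes, but the largest gate in both libraries was macrophages, with 3521 and 1581 cells. Barcodes with both T or NK markers and macrophage RNA, 665 and 695 of them at a median of 19333 and 17963 UMIs, were kept apart. Red-cell RNA, taken as a measure of free RNA, was higher in most gates of the ibudilast library (in migratory dendritic cells, 16.2 against 101 CPM). Monocytes were close to equal (1830 and 1988 CPM), and cells in no gate went the other way (1468 and 643 CPM). PBS macrophages had 6.39 CPM, far below PBS monocytes. The part of free RNA in the results was not tested.

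The ligands fell into 3 sources. Ccl22 lay in dendritic gates and Ccl17 in these with the Itgax+ C1q-low gate, Ccl1 in T and NK gates and Ccl8 in macrophages. Both receptors lay in T cells. The dendritic gates, with Itgax+ C1q-low cells counted among them, held 65.5% (PBS) and 64.1% (ibudilast) of all Ccl17 UMIs. Of their 3106 and 779 Ccl17 UMIs, 1813 and 151 lay in the Itgax+ C1q-low gate, which was added because of cells with Ccl17. In the PBS library the placing of most Ccl17 in dendritic gates thus rests on that gate, whose cell type was not settled. The dendritic gates, again with Itgax+ C1q-low cells, held 78.5% and 72.9% of the Ccl22 UMIs. T cell gates held 47.0% and 59.8% of the Ccl1 UMIs, and monocytes and macrophages held 86.5% and 76.9% of the Ccl8 UMIs. T cell gates held 45.5% and 39.2% of the Ccr4 UMIs and 24 of 45 and 19 of 38 Ccr8 UMIs. Much of the remaining receptor RNA lay in barcodes that carried T or NK and macrophage RNA together.

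**Figure D1:**
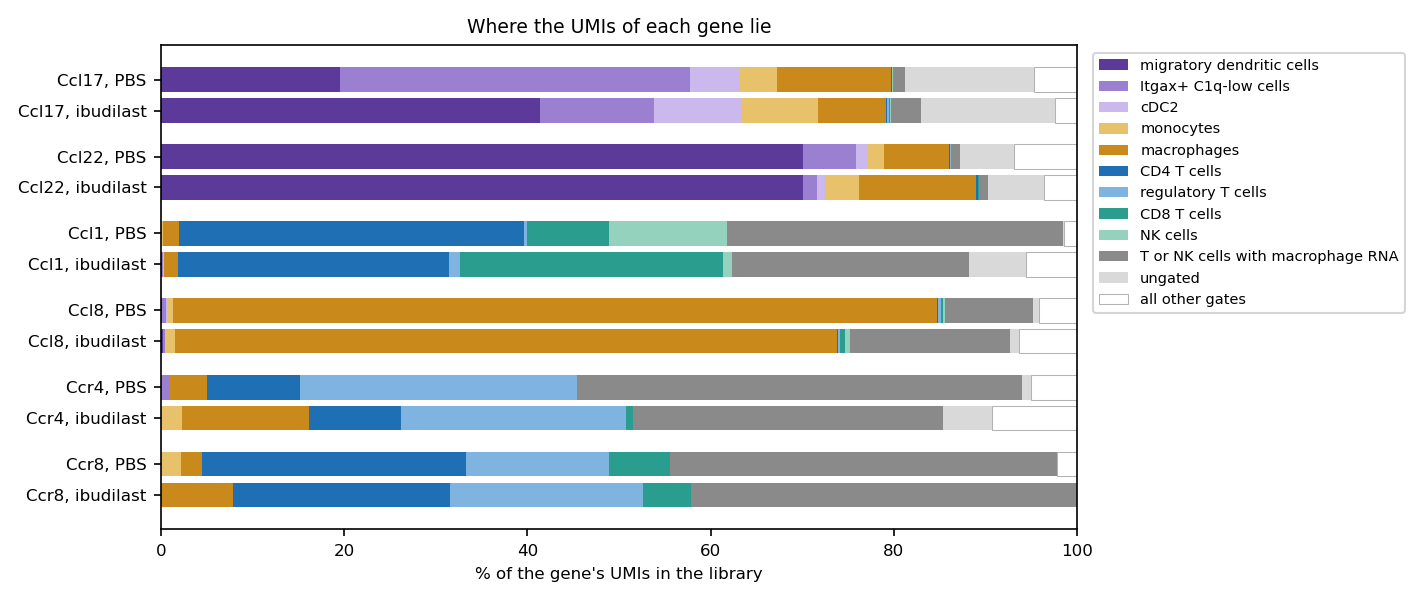
Share of each gene's UMIs (horizontal axis, percent of the gene's UMIs in the library) by source, 1 bar per gene and library. Ccl22 lay mostly in dendritic gates (78.5% in PBS) and Ccl8 in monocytes and macrophages (86.5%). Ccl1, Ccr4 and Ccr8 lay in T cells and in mixed T or NK barcodes. In PBS, Ccl17 lay mostly in dendritic gates (65.5%) only with Itgax+ C1q-low cells counted among them. The dendritic gates count Itgax+ C1q-low cells, which held 1813 of the 3106 PBS Ccl17 UMIs in these gates.

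**Figure D2:**
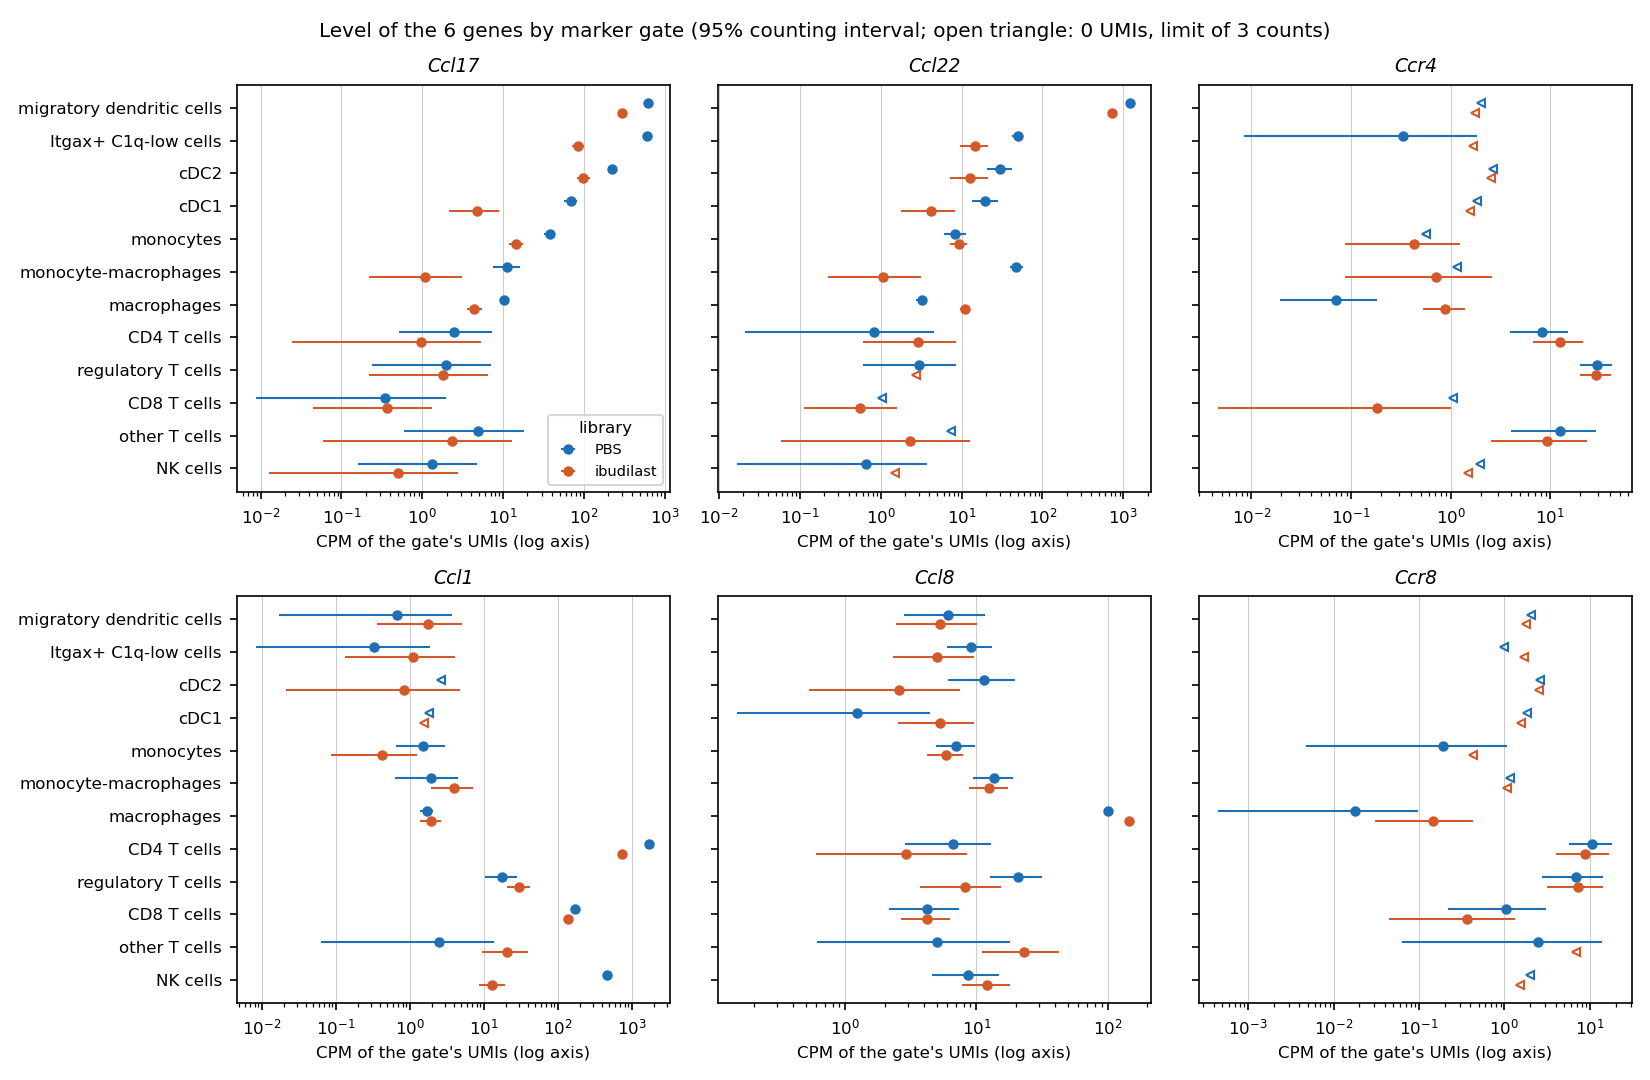
Level of each gene (CPM, log axis) in each gate, 1 point per library with its 95% counting interval; an open triangle is a gate with 0 UMIs, placed at the limit that 3 counts would give. Among gates with at least 50 cells per library each gene was highest in the same gate in both, such as Ccl22 in migratory dendritic cells at 1202 and 725 CPM.

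Ccl22, a CCR4 ligand also called macrophage-derived chemokine, was carried by most migratory dendritic cells and was lower there in the ibudilast library. These are the cells that express Fscn1 and Ccr7 and travel from tissue to lymph node. In the PBS library 1784 Ccl22 UMIs in 185 such cells gave 1202 CPM (95% interval 1147 to 1259). In the ibudilast library 1230 UMIs in 249 cells gave 725 CPM (685 to 767). The ratio of ibudilast to PBS was 0.603 (0.560 to 0.649). A gene was called lower here where the whole interval of its ratio lay below 0.8, and higher where it lay above the inverse of 0.8. Both members with at least 20 UMIs in this gate, Ccl22 and Ccl17, were called lower, while of all 7476 genes with that many UMIs 0.642% were called lower and 1.11% higher.

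The share of migratory dendritic cells with a Ccl22 UMI was 81.6% (151 of 185, exact interval 75.3 to 86.9%) in the PBS library and 67.1% (167 of 249, 60.8 to 72.9%) in the ibudilast library. With every cell thinned to 2000 UMIs and 12 and 26 shallower cells left out, the shares were 68.2% and 49.8%. Median depth in this gate was 7190 and 6462 UMIs. As a background, CD8 T cells, at a median of 8699 and 8808 UMIs, had Ccl22 in 0 of 264 cells, which allows up to 1.14%, and in 0.612% of 490. Cells with 10 or more Ccl22 UMIs numbered 51 of 185 and 38 of 249, and the highest single cells held 122 and 80. The gate held 70.0% and 70.1% of all Ccl22 UMIs of its library.

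Fscn1 and Ccr7, which with Il4i1 are among the genes that define this gate, were at near equal levels. The gate's marker minimum in part fixes such levels, so they do not show that the cell state was alike. Fscn1, which encodes an actin-bundling protein, was at 2493 (PBS) and 2441 CPM (ibudilast), and Ccr7, the lymph node homing receptor, at 2326 and 2217 CPM; neither was called. Of 19 dendritic cell maturation genes, all tested and with these gating genes among them, 2 were called higher and none lower. Those were Il4i1, an amino acid oxidase, at a ratio of 1.40, and Cd200, an inhibitory surface ligand, at 1.51. The median log2 ratio of the list was 0.11, beside 0.02 over all genes tested in the gate. Of all those genes 1.11% were called higher and 0.642% lower.

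Outside this gate the level of Ccl22 was far lower. Itgax+ C1q-low cells had 149 and 26 UMIs (ratio 0.293, 0.185 to 0.446), of which 80 in the PBS library lay in 1 cell; without the 1% of cells with the most Ccl22 the ratio was 0.480 (0.230 to 0.929), and after thinning 0.298 (0.0882 to 0.807), neither of them called. Type 1 conventional dendritic cells (cDC1) had 32 and 8 UMIs, a ratio of 0.212. Type 2 conventional dendritic cells (cDC2) had 34 and 15 (ratio 0.427, 0.216 to 0.805), which was not called. Monocytes had 44 and 65 UMIs (ratio 1.10), not called. Cells between monocyte and macrophage had 123 and 3, but 99 of the 123 lay in 1 cell.

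In macrophages the Ccl22 level was higher in the ibudilast library and the share of cells was not. There were 181 and 225 UMIs, or 3.21 and 11.1 CPM, a ratio of 3.45 (2.82 to 4.22). Cells with a UMI made up 2.73% (96 of 3521) and 1.71% (27 of 1581). In the ibudilast library 3 cells held 184 of the 225 UMIs, and all 3 also held Fscn1 and Ccr7 UMIs, at a median total of 36618 UMIs. Without the 1% of cells with the most Ccl22 UMIs the ratio was 0.511, from 60 and 11 UMIs, and it was not called under a stricter gate (1.02) or after thinning (1.34). Over the whole gate Fscn1 was 2.07 times and Ccr7 2.53 times as high in the ibudilast library; their part in the Ccl22 result was not tested.

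Ccl17, the other CCR4 ligand, was lower in the ibudilast library in the migratory, cDC1, cDC2 and Itgax+ C1q-low gates. In migratory dendritic cells 925 UMIs gave 623 CPM (584 to 665) in the PBS library and 503 UMIs gave 296 CPM (271 to 324) in the ibudilast library, a ratio of 0.476 (0.426 to 0.531). Cells with a UMI were 73 of 185 (39.5%) and 49 of 249 (19.7%), and after thinning 26.6% and 13.0%. CD8 T cells had a Ccl17 UMI in 1 of 264 and 2 of 490 cells. The highest cells held 156 and 102 UMIs, and cells with 10 or more UMIs numbered 23 and 13.

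Itgax+ C1q-low cells had a Ccl17 level close to that of migratory dendritic cells in the PBS library, where the intervals overlapped, and a lower one in the ibudilast library. The PBS library had 1813 UMIs in 206 cells, 605 CPM (577 to 633). The ibudilast library had 151 UMIs in 158 cells, 84.5 CPM (71.5 to 99.1), a ratio of 0.140 (0.117 to 0.165). The share of cells with a UMI was 38.3% (79 cells) and 17.7% (28 cells), and after thinning 24.3% and 8.44%, at median depths of 14291 and 10507 UMIs. Cells with 10 or more UMIs, 42 in the PBS library with 1683 UMIs and 7 in the ibudilast library with 96, held most of its Ccl17 UMIs. The highest PBS cells held 171 and 164 UMIs, against 22 and 16 in the ibudilast library. In this gate 2 of 3 members tested were called lower, Ccl17 and, by the full counts, Ccl22, against 0.636% of 9121 genes called lower and 1.13% called higher.

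**Figure D3:**
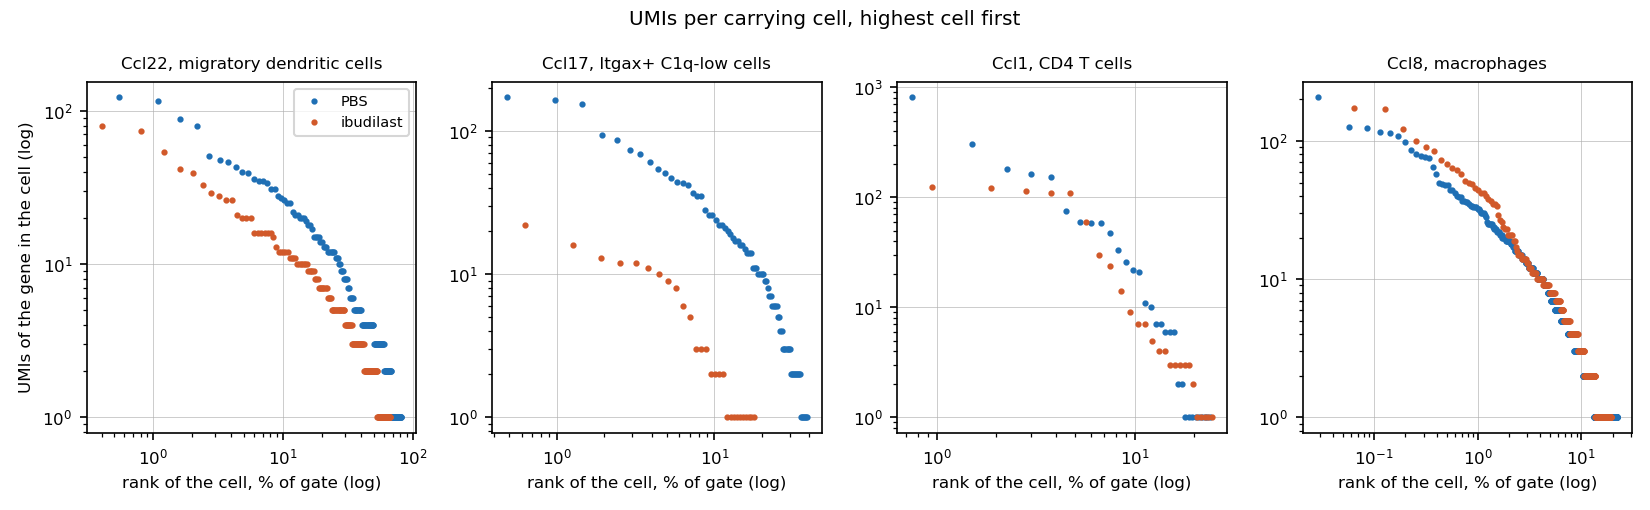
UMIs of a gene in each carrying cell (vertical log axis) against the cell's rank as a percent of the gate's cells (horizontal log axis), highest first, 1 curve per library and 1 panel per gene and gate. In Itgax+ C1q-low cells the Ccl17 curve of the PBS library starts at 171 UMIs and that of the ibudilast library at 22; for Ccl1 in CD4 T cells the curves start at 810 and 124.

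Other genes that mark the Ccl17 carriers of the Itgax+ C1q-low gate moved unevenly. Plet1, a surface protein of epithelial and some dendritic cells, was at 458 and 284 CPM (ratio 0.620, called lower), and its level in Ccl17 carriers was 4.30 and 3.86 times that in the other cells of the gate. Mgl2, the lectin CD301b of type 2 dendritic cells, was at 252 and 71.6 CPM (ratio 0.284, called lower), with carriers 3.08 and 4.24 times as high. Its lower level was not particular to this gate. Mgl2 was also called lower in macrophages (0.352), migratory dendritic cells (0.125), CD4 T cells (0.136, 26 and 3 UMIs) and CD8 T cells (0.239, 22 and 10 UMIs). Qpct, a glutaminyl cyclase, was also called lower at 0.647. Epcam, an adhesion molecule (233 and 218 CPM), the cadherin Cdh1 (115 and 83.9 CPM) and Itgax, by which the gate selects its cells (293 and 319 CPM), were not called. Ccr7 had 8 and 42 UMIs and was called higher. RNA of other cells was also higher in this gate of the ibudilast library: T cell markers summed to 16.3 and 39.2 CPM, red-cell markers to 7.34 and 202 CPM, and Gzmc, a granzyme of cytotoxic lymphocytes, had 4 and 160 UMIs (ratio 67.1, called higher). Their part in the Ccl17 difference was not tested. The carriers were deeper than the other cells, at medians of 18711 against 11109 UMIs in the PBS library and 14783 against 9105 in the ibudilast library.

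In cDC2, Ccl17 had 256 UMIs (225 CPM) and 116 UMIs (98.6 CPM), a ratio of 0.438 (0.349 to 0.548). Carriers were 22 of 106 cells (20.8%) and 8 of 110 (7.27%). One cell of each library held 81 and 56 of these UMIs, and without the 1% of cells with the most Ccl17 the ratio was 0.141; under a stricter gate it was 0.0625. Of the 2 members tested, Ccl17 was called lower and Ccl22 was not, against 1.1% of 7173 genes called lower and 0.725% higher. Mgl2 was also called lower in cDC2, at 141 and 70.5 CPM, and Plet1 was not, at a ratio of 0.967. The carriers in this gate had 13.3 and 6.61 times the Plet1 level of the other cDC2.

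Lower Ccl17 was also read in gates where few cells carried it. In cDC1 there were 112 and 9 UMIs, and 95 of the 112 lay in 1 cell. Without the top 1% of cells the cDC1 ratio was 0.250 in place of 0.0681, and it was no longer called under a stricter gate (0.322, 0.0749 to 1.09) or after thinning (0.184, 0.019 to 0.922). The ratio of the shares of cells with a UMI was 0.401 (0.106 to 1.33). By the full counts both members tested there, Ccl17 and Ccl22, were called lower, against 0.401% of 8234 genes. Monocytes had 198 and 102 UMIs, 37.6 and 14.4 CPM, a ratio of 0.384 (0.299 to 0.490). Of these UMIs 165 lay in 4 of 685 PBS cells and 72 in 2 of 978 ibudilast cells. Without the top 1% of cells the monocyte ratio was 0.161, from 23 and 5 UMIs. After thinning it was 0.589 (0.353 to 0.976), which was no longer called. By the full counts 1 of 3 members was called lower against 0.857% of 10155 genes. Monocyte-macrophages had 29 and 3 UMIs, and 22 of the 29 lay in 1 cell; Ccl17 and Ccl22 were called lower there of 3 members tested, against 0.676% of 9178 genes. Macrophages had 588 and 90 UMIs, 10.4 and 4.42 CPM, a ratio of 0.425 (0.336 to 0.531), in 4.09% and 1.83% of cells, and without the top 1% of cells the ratio was 0.252. Of 5 members tested in macrophages, Ccl17 was called lower and Ccl22, Ccl8 and Ccr4 higher, against 1.02% of 12696 genes lower and 4.22% higher.

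Cells in no gate held a further 667 and 178 Ccl17 UMIs, a ratio of 0.327. These cells had low depth as a whole (medians of 5090 and 3309 UMIs), but most of the Ccl17 lay in deep ones. Cells with 10 or more Ccl17 UMIs, 22 (PBS) and 6 (ibudilast), held 556 and 107 of them, at median depths of 19388.5 and 15894 UMIs. Of these 22 and 6 cells, 18 and 4 also had a Plet1 UMI, 18 and 2 a Mgl2 UMI and 18 and 4 an Itgax UMI. All 22 and all 6 also had C1qa, a macrophage marker, with 614 and 103 UMIs in total. Their cell type was not settled.

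**Figure D4:**
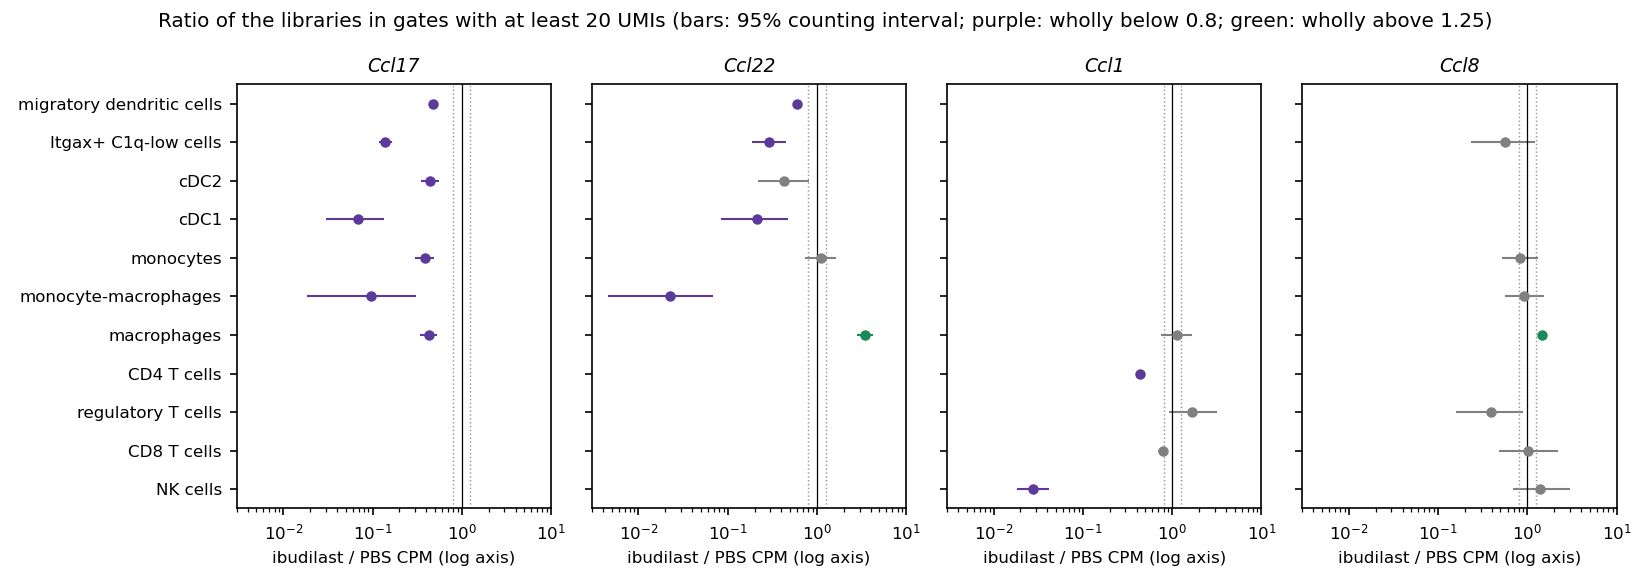
Ratio of the ibudilast to the PBS level (log axis) of each ligand in gates with at least 20 UMIs over both libraries; bars are 95% counting intervals and colours mark intervals wholly below 0.8 or above its inverse. All Ccl17 points lie below 1 (0.476 in migratory dendritic cells), while Ccl22 lies below 1 in dendritic gates and above 1 in macrophages (3.45). The macrophage ratio of Ccl22 was 0.511 without the 1% of cells with the most Ccl22 and 1.02 under a stricter gate.

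Within migratory dendritic cells the 2 CCR4 ligands were carried by overlapping cells. Of the 73 PBS cells with Ccl17, 70 (95.9%) also had Ccl22, against 72.3% of the cells without Ccl17. In the ibudilast library 47 of 49 (95.9%) had both, against 60.0% of the others. In Itgax+ C1q-low cells 21 of 79 Ccl17 carriers (26.6%) had Ccl22 in the PBS library, against 2.36% of the others, and 4 of 28 (14.3%) in the ibudilast library, against 5.38%. Carriers were deeper than other cells in these gates, at 8187 and 6502 median UMIs for Ccl17 in PBS migratory dendritic cells; the part of depth in the overlap was not tested.

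Among the other genes of migratory dendritic cells, the ones highest in Ccl22 carriers against the rest, by the lower of the 2 libraries' ratios, were Ccl17 (14.5 and 25.1 times), Apol7c, an apolipoprotein L gene (8.89 and 5.18), Gclc, Procr and Il12b, the shared chain of IL-12 and IL-23 (9.95 and 2.27). For Ccl17 carriers they were Ccl22 (2.85 and 3.57), Kctd14, Cxcl2, Ccl3 and Plk2. Procr, the protein C receptor, was itself called lower in the ibudilast library at 0.471, and Il12b was not called at 0.728. Over 28 points (each a gate of 1 library with at least 50 cells, so that points share libraries and depth), the profile of log2 levels most like that of Ccl17 was that of Nectin1 (Pearson r 0.880), then Ccl22 (0.855), Rtn1, Htr7 and Tax1bp3. For Ccl22 it was Fnbp1l (0.869), then Lactb, Cd83 (0.860), Nostrin and Mob1a.

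Other chemokines went in both directions. Of 20 other chemokine ligands, 12 were tested in migratory dendritic cells: Ccl3 (1.87), Ccl4 (3.45), Ccl5 (1.38) and Cxcl10 (1.52) were called higher and Ccl7 (0.367) and Ccl12 (0.515) lower. Their median log2 ratio was -0.09. In Itgax+ C1q-low cells 14 were tested, with Xcl1 called higher and Ccl2, Ccl3 and Ccl24 lower. Ccl24, an eotaxin, was at 31.0 and 3.36 CPM there. In macrophages 15 were tested, with 2 called higher (Ccl5 and Xcl1) and 6 lower, among them Ccl2 (0.661), Ccl7 (0.668) and Ccl24 (0.200). Of all genes tested in these gates, in the same order, 0.642%, 0.636% and 1.02% were called lower and 1.11%, 1.13% and 4.22% higher.

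The genes through which IL-4, IL-13, GM-CSF and TSLP are known to induce Ccl17 and Ccl22 did not pass the fold. All 14 were tested in migratory dendritic cells, Itgax+ C1q-low cells and cDC2, and 0 were called in either direction in each. Of all genes tested in these gates, 0.642%, 0.636% and 1.1% were called lower and 1.11%, 1.13% and 0.725% higher. At such shares 0 of 14 says little about these genes. The median log2 ratios of the 14 were 0.07, 0.13 and -0.07. Il4ra, the shared IL-4 and IL-13 receptor chain, was at 97.7 and 116 CPM in migratory dendritic cells, close to equal in Itgax+ C1q-low cells (244 and 143 UMIs) and 108 and 103 CPM in cDC2. Stat6, the factor downstream of it, was at 78.2 and 60.7 CPM in migratory dendritic cells. In Itgax+ C1q-low cells Stat5a was at a ratio of 1.85 (1.23 to 2.79) and Irf4 at 1.58 (1.04 to 2.39), neither called. No gene of the list had an interval wholly below 1 there.

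Ccl1, the CCR8 ligand of activated T cells, was highest in CD4 T cells without Foxp3 and lower there in the ibudilast library, while the share of cells that carried it was nearly the same. The PBS library had 2081 UMIs in 133 cells, 1711 CPM (1638 to 1786), and the ibudilast library 766 UMIs in 106 cells, 744 CPM (692 to 798), a ratio of 0.435 (0.400 to 0.473). Cells with a UMI were 32 of 133 (24.1%, 17.1 to 32.2%) and 26 of 106 (24.5%, 16.7 to 33.8%), and after thinning 16.7% and 18.9%. Median depth in the gate was 7414 and 7704 UMIs. The libraries differed in the cells with the most Ccl1. A single PBS cell held 810 UMIs and the next 304, against 124 and 122 in the ibudilast library. Cells with 10 or more UMIs numbered 16 with 2036 UMIs and 9 with 708 UMIs. Without the 1% of cells with the most Ccl1 the ratio was 0.652, and after thinning 0.242. In CD4 T cells 1 of 3 members tested was called lower, against 0.807% of 8176 genes called lower and 1.36% higher. Macrophages, the background for Ccl1, had a UMI in 44 of 3521 and 25 of 1581 cells at median depths of 15087 and 11052 UMIs.

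CD8 T cells had 495 Ccl1 UMIs in 264 cells (173 CPM) and 743 in 490 cells (136 CPM), a ratio of 0.788 (0.702 to 0.884), which was not called. It was 0.403 with each cell weighted alike, where no interval was taken. After thinning it was 0.378 (0.272 to 0.524) and without the 1% of cells with the most Ccl1 0.351 (0.291 to 0.423). Both of these intervals met the rule for lower. Carriers were 33 (12.5%) and 50 (10.2%) cells. By the full counts none of 2 members tested in CD8 T cells was called, against 0.435% of 10121 genes lower and 1.18% higher. NK cells had 706 and 26 UMIs, 468 and 13.0 CPM, with 13 of 177 and 5 of 347 cells carrying Ccl1. The ratio was 0.0279 (0.018 to 0.041). One PBS NK cell held 530 of the 706 UMIs, and without the 1% of cells with the most Ccl1 in each library 119 and 1 UMIs remained. With each cell weighted alike the ratio was 0.0501. Of 2 members tested in NK cells 1 was called lower, against 1.96% of 8611 genes. Regulatory T cells, here the T cells with a Foxp3 UMI that did not meet the CD8 gate, had only 18 and 33 Ccl1 UMIs (ratio 1.68), not called.

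Barcodes with T or NK and macrophage RNA had 2024 and 669 Ccl1 UMIs, 147 and 47.0 CPM, a ratio of 0.321. In the other barcodes outside the gates the Ccl1 level was higher in the ibudilast library: cells in no gate had 7 and 163 UMIs (ratio 28.5, 13.5 to 72.0) and other mixed barcodes 61 and 122 (ratio 3.24, 2.37 to 4.48), both called higher. In these sets 1 ibudilast cell held 150 of the 163 UMIs, and single cells held 57 of the 61 and 97 of the 122. With the T or NK barcodes that had macrophage RNA placed by their T or NK markers and counted in, the CD4 T cell ratio of Ccl1 was 0.525 and the CD8 T cell ratio 0.500. Both were then called lower.

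The genes highest in Ccl1 carriers among CD4 T cells were Penk, which encodes proenkephalin (21.7 and 8.62 times the level of the other cells), Lgals7, a galectin (3.98 and 3.94), Abcd3, Igfbp7 and Rgcc. Penk was at 347 and 260 CPM in the gate and Lgals7 at a ratio of 0.740, neither called, while Igfbp7 was called lower at 0.625. In CD8 T cells they included Gzmc, a granzyme (4.08 and 11.6), Xcl1, a chemokine (3.68 and 5.18), Rgcc and Nr4a3. Carriers were again deeper, at 10024 against 6482 median UMIs in PBS CD4 T cells and 11288 against 6413 in the ibudilast library. Over the 28 points the profile most like that of Ccl1 was that of Nrgn (r 0.927), then Rgs16, Fhl2, Ifng (0.865) and Csf2.

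Activation genes of T cells went in both directions. Of 15 such genes 14 were tested in CD4 T cells. Xcl1 (1.62), Ifng, the macrophage-activating cytokine (1.37), and Irf8 (1.60) were called higher and the nuclear receptor Nr4a2 (0.523) lower. In CD8 T cells all 15 were tested and Ccl3 (1.34) was called higher. Of 10 type 2 helper genes 4 were tested in CD4 T cells and Areg, an epidermal growth factor family member, was called lower at 122 and 32.0 CPM. In regulatory T cells Areg was called higher, at 41.3 and 79.3 CPM. Gata3, the type 2 helper factor, was at 68.2 and 80.6 CPM in CD4 T cells and was not called. Over all genes tested, 0.807% (CD4), 0.435% (CD8) and 0.834% (regulatory T cells) were called lower and 1.36%, 1.18% and 2.28% higher.

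Ccl8, the CCR8 agonist also called MCP-2, was a macrophage gene in both libraries and was higher in the ibudilast library. There were 5674 UMIs in 3521 macrophages, 100 CPM (97.9 to 103), and 2983 in 1581, 147 CPM (141 to 152), a ratio of 1.46 (1.40 to 1.53). The share of cells with a UMI was 22.1% (778 cells) and 19.4% (306 cells), and with cells thinned to 2000 UMIs 8.09% and 9.29%, so the order of the shares turned with depth. CD8 T cells, as background, had a Ccl8 UMI in 4.55% and 3.88% of cells. Cells with 10 or more Ccl8 UMIs, 151 and 67 of them, held 72.3% and 75.7% of the UMIs of the gate. Macrophages held 83.5% and 72.3% of all Ccl8 UMIs of their library. Microglia had 131 UMIs in 20 of 134 cells and 115 in 3 of 48 cells, of which 2 cells held 114; with under 50 cells in the ibudilast library no ratio was taken.

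Genes that went with Ccl8 within macrophages included Tspan7, Igf1, a growth factor (2.85 and 2.63 times as high in carriers), Ccl24 (2.59 and 5.70) and the adhesion molecule Vcam1. In contrast to Ccl8, Ccl24 at 0.200 and Vcam1 at 0.634 were called lower in macrophages of the ibudilast library. Mgl2 was lower there too, at 0.352. Over the 28 points the profile most like that of Ccl8 was that of Tfpi (r 0.859), then Pdgfb, C1qa (0.771), C1qb and Lpl.

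Ccr4, the receptor for CCL17 and CCL22, was highest in regulatory T cells and did not differ between the libraries beyond counting error. Regulatory T cells had 30 UMIs in 88 cells, 29.5 CPM (19.9 to 42.1), in the PBS library and 32 UMIs in 90 cells, 28.8 CPM (19.7 to 40.7), in the ibudilast library. The ratio was 0.978 with an interval of 0.576 to 1.67, which leaves room for a change of either direction. Cells with a UMI were 16 of 88 (18.2%, 10.8 to 27.8%) and 19 of 90 (21.1%, 13.2 to 31.0%), and after thinning 4.60% and 6.74%. CD4 T cells had 10 and 13 UMIs, in 7 cells each (5.26% and 6.60%), at 8.22 and 12.6 CPM, a ratio of 1.54 (0.622 to 3.91). In the PBS library the interval of CD4 T cells (3.94 to 15.1 CPM) lay below that of regulatory T cells, and in the ibudilast library the intervals (6.72 to 21.6 and 19.7 to 40.7 CPM) overlapped. In regulatory T cells none of 3 members tested was called, against 0.834% of 7911 genes called lower and 2.28% higher.

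T cells that met no CD8, CD4, regulatory or gamma-delta gate had 5 and 4 Ccr4 UMIs, 12.4 and 9.24 CPM, beside the level of CD4 T cells and with intervals that overlap it. CD8 T cells had 0 and 1 UMI, NK cells had none in either library, and cDC1, cDC2 and migratory dendritic cells had none. For migratory dendritic cells 0 of 185 and 0 of 249 cells allow a share of up to 1.62% and 1.20%. Macrophages had 4 and 18 UMIs, in 4 of 3521 (0.114%) and 10 of 1581 cells (0.633%), and the ratio of 12.5 (4.11 to 50.7) was called higher. Markers of T cells summed to 32.3 CPM in PBS and 80.6 CPM in ibudilast macrophages, and 7 of the 18 UMIs lay in 1 cell; the part of T cell RNA in this result was not tested.

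Ccr8, the receptor for CCL1 and CCL8, was read in CD4 and regulatory T cells at few UMIs, and no difference between the libraries was detectable at this depth. CD4 T cells had 13 UMIs in 11 cells (8.27%) and 9 UMIs in 9 cells (8.49%), or 10.7 CPM (5.69 to 18.3) and 8.74 CPM (4.0 to 16.6), a ratio of 0.818 (0.309 to 2.07). Regulatory T cells had 7 UMIs in 6 cells (6.82%) and 8 UMIs in 7 cells (7.78%), 6.88 and 7.21 CPM. These neighbouring levels did not differ beyond their intervals in either library. CD8 T cells had 3 and 2 UMIs, macrophages 1 and 3, and NK cells and the dendritic gates none.

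**Figure D5:**
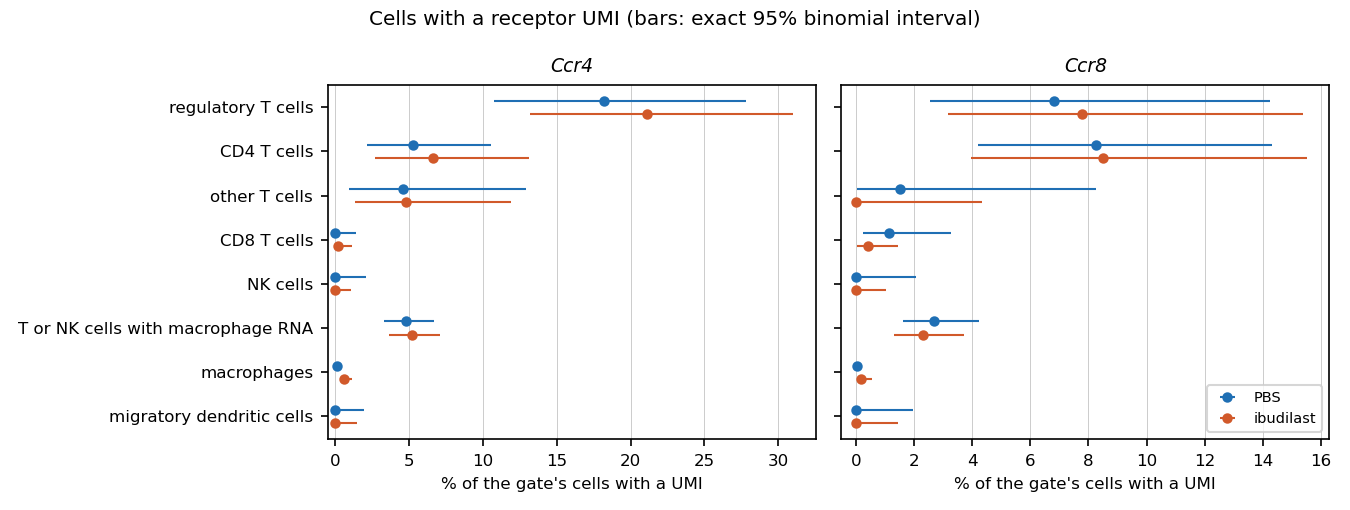
Share of cells with a UMI of Ccr4 or Ccr8 (horizontal axis, percent of the gate's cells) by gate and library, with exact 95% binomial intervals. Regulatory T cells have the highest Ccr4 share (18.2% and 21.1%) and CD4 T cells the highest Ccr8 share (8.27% and 8.49%), and the intervals of the libraries overlap in these gates.

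Barcodes with T or NK and macrophage RNA held 48 and 44 Ccr4 UMIs, 48.5% and 33.8% of those of each library, and 19 and 16 Ccr8 UMIs, 42.2% and 42.1%. With these barcodes counted in the gate that their T cell markers give, regulatory T cells had 55 and 53 Ccr4 UMIs, 14.3 and 16.5 CPM, a ratio of 1.15 (0.776 to 1.71). CD4 T cells then had 18 and 13 Ccr8 UMIs, a ratio of 1.08. No call on a receptor in these 2 gates came from the addition.

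The receptors were seldom read in the same cell. Among all kept cells 2 of the PBS cells and 6 of the ibudilast cells had UMIs of both Ccr4 and Ccr8, although at this depth most cells with a transcript can read as 0. Of CD4 T cells with Ccl1, 5 of 32 (15.6%) had Ccr8 in the PBS library, against 5.94% of those without Ccl1, and 4 of 26 (15.4%) against 6.25% in the ibudilast library. Carriers of both genes were deeper than other cells, with medians of 10164 against 7194 UMIs for Ccr8 in PBS CD4 T cells.

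Ccr4 carriers among regulatory T cells differed most from the rest in Cdca3, H1f3, Mki67, a marker of cycling cells (2.73 and 2.82 times as high), Cdca8 and Cenpf. Their median depth was 14495 against 7778 UMIs in the PBS library and 14267 against 7549 in the ibudilast library, a difference whose part in this list was not tested. For Ccr8 in CD4 T cells the leading genes were Ramp3, Cisd1, Larp7, Tmbim4 and Eif4ebp1, from 11 and 9 carriers. Over the 28 points the profile most like that of Ccr4 was that of Izumo1r, the folate receptor 4 of regulatory T cells (r 0.935), then Sdf4, Sv2c, Podnl1 and Il10 (0.893). For Ccr8 it was Sdf4 (0.900), then Arl6ip1, Penk (0.884), Izumo1r and Lgals7.

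Of 17 other chemokine receptors 9 were tested in CD4 T cells, with Ccrl2, an atypical receptor, called higher (1.98) and Ccr7 called lower (0.244). In regulatory T cells 10 were tested and Ccrl2 (1.85) was called higher; the median log2 ratio of the list was 0.26 there, beside 0.0035 over all genes tested. In CD8 T cells 8 were tested and 0 were called. Of 16 genes of receptor signalling and desensitisation, 15 were tested in CD4 T cells and Rgs1, a regulator of G protein signalling, was called lower at 0.730, while 0 of 15 were called in regulatory and 0 of 16 in CD8 T cells. Of 17 effector regulatory T genes, 16 were tested in regulatory T cells and the cytokine Il10 alone was called, at 64.8 and 185 CPM (ratio 2.85). Foxp3, which defines the lineage, was at 251 and 213 CPM. Of all genes tested in CD4, regulatory and CD8 T cells, 0.807%, 0.834% and 0.435% were called lower and 1.36%, 2.28% and 1.18% higher. At such shares 0 called of 8, 15 or 16 says little about these genes.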

How the data were processed

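The authors deposited UMI counts per gene and cell barcode from Chromium 3' v3.1 libraries, which the file headers credit to Cell Ranger 6.1.1 and the submitters' processing notes to mm10; the annotation is not stated there. The members and gene lists were chosen with earlier results of these data known. Barcodes with at least 300 genes, 500 UMIs and at most 10% mitochondrial UMIs passed (8155 of 8968 PBS, 7079 of 8483 ibudilast). Scrublet in scanpy 1.11.5 marked 0 doublets, so the caller did not work; the 6% of cells with the highest scores in each library were left out. Gates were cut on marker UMIs, and 12 of 18 had at least 50 cells per library. UMIs were summed per gate and library and scaled to CPM, 104651353 and 70343716 UMIs in all. Levels had exact Poisson, shares Clopper-Pearson and ratios conditional binomial 95% intervals (Python 3.11.15, numpy 2.4.6, scipy 1.17.1), checked on simulated data. PCR duplicates are collapsed by the UMIs, and intervals cover counting error only. Limits for 0 use 3 counts. Ratios were taken from 20 UMIs over both libraries. Median log2 ratios of lists add 0.5 UMIs. Named are the 6 members, the 5 genes most like each in profile over the 28 points of gates with at least 50 cells in a library (genes with at least 200 UMIs per library), the 5 genes highest in its carriers in its highest gate (at least 50 UMIs per library), and up to 4 genes per list; the Ccl17 carriers of the Itgax+ C1q-low and cDC2 gates, Ccl1 carriers of CD8 T cells and the levels of genes so found were added after values were seen. Some genes that these rules name are not reported here. Alternatives were other cell filters, gates, weights, scaling, thinning and minimums.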

Additional observations from a re-analysis of the deposited data

Results flagged for a closer look

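By the full counts Ccl22 went in opposite directions between gates. The ratio of ibudilast to PBS was 0.603 in migratory dendritic cells, 0.293 in Itgax+ C1q-low cells, 0.212 in cDC1 and 0.0226 in monocyte-macrophages, and 3.45 in macrophages. The difference between gates was not tested, since each group is 1 library. In monocyte-macrophages 1 PBS cell and in macrophages 3 ibudilast cells held most of the UMIs. Without the 1% of cells with the most Ccl22 the macrophage ratio was 0.511, and under a stricter gate it was 1.02.

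Large parts of some members lay in barcodes outside the gates that were compared. Barcodes with T or NK and macrophage RNA held 48.5% (PBS) and 33.8% (ibudilast) of the Ccr4 UMIs, 42.2% and 42.1% of the Ccr8 UMIs, 36.7% and 25.8% of the Ccl1 UMIs and, in the ibudilast library, 17.4% of the Ccl8 UMIs. Cells in no gate held 14.1% (PBS) and 14.7% (ibudilast) of the Ccl17 UMIs.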

How the results depend on the processing

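No paired analysis was possible because each group has 1 library. Of the comparisons of a member in its highest gate, and of Ccl17 in Itgax+ C1q-low cells, 44 values under other settings stayed near the reported one and 15 moved, all in the same direction for the 4 ligands. The Ccl17 ratio in migratory dendritic cells was 0.366 under the stricter gate, 0.373 with each cell weighted alike, 0.392 after thinning and 0.383 without the top 1% of cells. In Itgax+ C1q-low cells it was 0.168 under the stricter gate and 0.174 after thinning. The Ccl1 ratio in CD4 T cells was 0.283 with each cell alike, 0.242 after thinning, 0.652 without the top 1% of cells and 0.525 with mixed barcodes counted in, a setting chosen after seeing the data. The Ccl8 ratio in macrophages was 1.54 under the stricter gate, 1.59 with each cell alike, 1.61 after thinning and 1.37 without the top 1%. The Ccr4 ratio in regulatory T cells was 1.96 after thinning, from 4 and 8 UMIs. Ccl22 in migratory dendritic cells ranged from 0.581 to 0.645. Of the other values (ratios in other gates, shares of cells with a UMI and counts of genes called) 90 stayed near, 35 moved and 1 turned, Ccl22 in macrophages, 0.511 without the top 1% of cells. With at least 100 UMIs, so that fewer genes were tested, the genes called lower numbered 24 in place of 48 in migratory dendritic cells, 30 in place of 58 in Itgax+ C1q-low cells, 23 in place of 66 in CD4 T cells and 22 in place of 66 in regulatory T cells, and those called higher 44 for 83, 35 for 103, 42 for 111 and 99 for 180, and 341 for 536 in macrophages. Without a minimum 159 were called higher in Itgax+ C1q-low cells. The cause of these shifts was otherwise not tested.

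One library per group, 45 and 38 Ccr8 UMIs and 99 and 130 Ccr4 UMIs in all kept cells, and few cells that hold most Ccl1 and Ccl17 UMIs limit every comparison. A share counts cells with a UMI, not cells that express the gene.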
